A study of Arabidopsis thaliana with 18 samples.

Results

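The genes described here encode the enzymes that make jasmonate from linolenic acid in Arabidopsis thaliana, and they were followed through dry seeds, imbibed seeds and seeds imbibed with salt. The set holds 10 genes of the 33602 in each table: the 13-lipoxygenase genes LOX2, LOX3, LOX4 and LOX6, the allene oxide synthase gene AOS, the allene oxide cyclase genes AOC1, AOC2, AOC3 and AOC4, and the OPDA reductase gene OPR3. They were chosen by name and enzyme step, and all 10 identifiers were found in the 3 tables. The family was picked with the low AOS value of imbibed ΔDS seeds already known, so the genotype effects below are a description, and the p-values that the authors deposited with them are printed as deposited and not as independent support.

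Jasmonate synthesis starts in the plastid, where a 13-lipoxygenase adds oxygen to linolenic acid. AOS turns the hydroperoxide into an unstable allene oxide, and an allene oxide cyclase closes the ring to give 12-oxo-phytodienoic acid (OPDA). OPDA moves to the peroxisome, where OPR3 reduces it and beta-oxidation shortens the side chain to jasmonic acid. JAR1 joins jasmonic acid to isoleucine, and the receptor COI1 then marks the JAZ repressors for destruction, which frees MYC2 and related transcription factors. In Arabidopsis seeds OPDA is known to hold back germination together with abscisic acid.

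RNA was sequenced from seeds complemented with a copy lacking the DS segment (ΔDS) or with an intact copy (+WT). From knowledge of the study the copy is of FLOE1 (AT4G28300), a seed protein that forms condensates when the embryo takes up water. The 6 groups were dry ΔDS and dry +WT seeds, imbibed ΔDS and imbibed +WT seeds, and salt ΔDS and salt +WT seeds, each with 3 replicates, which makes 18 samples. For imbibition, seeds lay on MS medium in darkness at 4 °C for 5 days and then in light at 22 °C for 4 h. Salt seeds followed the same course with 220 mM NaCl in the medium. All 6 groups carry a transgene, and the labels do not say whether each genotype is a single line or whether replicates came from separate mother plants. The extraction text names seeds and siliques together.

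The authors deposited 1 table per seed state, with the mean normalised count over its 6 libraries and the fold change of each gene with its standard error (SE). The headers give no direction for the fold changes. A positive value was taken as higher in ΔDS because ΔDS is named first, and every sign would turn if that were wrong. Group levels were implied from the mean and the fold change with 3 libraries on each side, so they carry no spread of their own, and the SE of the fold change stands for the replicate error. The summed means were 26367661 normalised counts for dry, 24526188 for imbibed and 26080227 for salt seeds. A total of 3 counts over 6 libraries, the least that was taken as detected, corresponds to a mean of 0.5. FLOE1 itself stood at a log2 fold change of -5.53 in dry seeds, -5.58 in imbibed seeds and -5.0 in salt seeds in the authors' deposited table. The deletion, the amount of FLOE1 transcript and the line therefore cannot be told apart. In whole seeds, fewer cells of a type and less RNA per cell cannot be told apart either.

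The 300 bases before the annotated start of AOS, OPR3 and LOX6 are shown because these genes were lower in ΔDS seeds after imbibition and carry the highest or only signal of their step there. AOC4 meets the same rule, but its window overlaps the neighbouring gene AT1G13270 and is not printed. The sequences are from the TAIR10.1 genome and RefSeq annotation and run 5′ to 3′ on the gene's strand, at chr5:17099596-17099895 (minus strand) for AOS, chr2:2362376-2362675 (minus strand) for OPR3 and chr1:25319504-25319803 (plus strand) for LOX6. Capitals mark CACGTG, the G-box core bound by MYC and bZIP factors, its variant CACATG, or ACGTGNC, the abscisic acid response element, searched on both strands. CACGTG followed by N and C holds an ACGTGNC match as well.
AOS: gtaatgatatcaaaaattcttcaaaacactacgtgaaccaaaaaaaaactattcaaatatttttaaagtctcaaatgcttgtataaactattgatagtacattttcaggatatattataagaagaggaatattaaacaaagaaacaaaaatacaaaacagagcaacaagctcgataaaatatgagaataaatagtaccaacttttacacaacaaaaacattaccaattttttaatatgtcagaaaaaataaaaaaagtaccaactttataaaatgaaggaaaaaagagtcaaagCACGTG
OPR3: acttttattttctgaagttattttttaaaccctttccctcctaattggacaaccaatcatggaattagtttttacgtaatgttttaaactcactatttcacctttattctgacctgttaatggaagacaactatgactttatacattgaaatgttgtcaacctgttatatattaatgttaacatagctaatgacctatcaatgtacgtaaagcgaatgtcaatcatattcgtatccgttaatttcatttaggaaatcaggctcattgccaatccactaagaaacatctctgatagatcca
LOX6: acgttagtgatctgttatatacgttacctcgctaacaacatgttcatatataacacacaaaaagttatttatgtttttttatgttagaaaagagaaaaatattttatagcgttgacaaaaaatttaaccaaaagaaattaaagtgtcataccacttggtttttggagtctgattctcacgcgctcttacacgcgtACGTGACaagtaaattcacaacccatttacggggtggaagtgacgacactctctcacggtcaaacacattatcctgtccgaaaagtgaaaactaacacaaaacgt

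The AOS window holds 1 CACGTG, whose first base lies at -6 from the start site. CACGTG was found in 7.09% of 27437 promoter windows of this length, CACATG in 13.1% and ACGTGNC in 9.46%. The LOX6 window holds 1 ACGTGNC match, at -105. The AOC4 window holds 1 CACATG, at -78. LOX3, whose fold change did not pass in any state, holds 1 CACATG at -65 and 1 ACGTGNC match at -263. LOX2, not detected in these seeds, holds 1 CACATG at -97. None of these 3 motifs is in the windows of OPR3, LOX4, AOC1, AOC2 and AOC3. The matches describe letters only.

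Of the 8 members tested in imbibed seeds AOS had the largest fold change, lower in ΔDS. It was lower to a lesser extent in salt ΔDS seeds, and in dry seeds its fold change did not pass the threshold of 0.05. The implied level of AOS (AT5G42650, a gene with 1 exon at chr5:17097564-17099595) was 157 normalised counts in dry ΔDS seeds and 146 in dry +WT seeds. In imbibed seeds it was 207 in ΔDS and 1350 in +WT. In salt seeds it was 449 in ΔDS and 791 in +WT. AOS thus stood at almost the same level in both genotypes when dry, and was lower in ΔDS seeds in both wet states.

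The log2 fold change of AOS in the authors' deposited table was 0.10 ± 0.169 (SE) in dry seeds, with an adjusted p of 0.857. In imbibed seeds AOS was 6.52-fold lower in ΔDS, with a log2 fold change of -2.70 ± 0.311, a 95% interval of -3.31 to -2.09 and an adjusted p of 1.45e-15 in the authors' deposited table. In salt seeds it was 1.76-fold lower in ΔDS, with -0.82 ± 0.106, an interval of -1.02 to -0.61 and an adjusted p of 1.76e-12 in the authors' deposited table. Of 19430 genes tested in imbibed seeds, 67 (0.345%) had a lower fold change than AOS, and 33 of those 67 passed that threshold. In salt seeds 565 of 18518 genes (3.05%) lay lower.

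The error of the AOS fold change in imbibed seeds was large for its level. Its SE of 0.311 exceeded that of 98.5% of 1700 genes with a mean within 1.2-fold of AOS, whose median SE was 0.131. The AOS error exceeded that of 20.8% of such genes in dry seeds and 72.9% in salt seeds. A variation between libraries of 25.9% is implied by that SE in imbibed seeds, against 8.0% in salt and 11.9% in dry seeds. Which imbibed library or libraries carry that spread cannot be read from a mean and an SE. A larger SE in imbibed seeds was not particular to AOS. In dry, imbibed and salt seeds it was 0.0459, 0.263 and 0.0428 for the storage gene CRU1, and 0.0883, 0.257 and 0.0609 for the dormancy gene DOG1. The imbibed SEs of LOX6, AOC4 and OPR3 exceeded those of only 30.3%, 59.3% and 31.5% of genes of like level.

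The genotype effect on AOS was set against itself in each pair of seed states, as differences of the deposited log2 fold changes. The effect in imbibed seeds minus that in dry seeds was -2.81 ± 0.354 (95% interval -3.50 to -2.11), and salt minus imbibed was 1.89 ± 0.329 (1.24 to 2.53). Both contain the imbibed value that was known when the genes were chosen, so they are a description and carry no test. Salt minus dry, which does not contain it, was -0.92 ± 0.200 (-1.31 to -0.53) and passed a z test with Benjamini-Hochberg adjustment over all genes tested in both tables (adjusted p = 0.000292). The tests were chosen with earlier results of these data known, so this result is not independent support either. Over all genes such differences were called by that z test for 25.0% of 16228 genes (16.5% in the direction of AOS) between imbibed and dry seeds. The share was 5.83% of 16281 genes between salt and dry seeds (4.19% in the direction of AOS), and 9.16% of 18219 genes between salt and imbibed seeds (5.85% in the direction of AOS).

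On a length-scaled level (counts per base of exon, scaled so that all genes of a table have the same sum, in ppm), AOS read 4.11 ppm in dry ΔDS and 3.82 ppm in dry +WT seeds. It read 6.75 ppm in imbibed ΔDS and 44.0 ppm in imbibed +WT seeds, and 12.9 ppm in salt ΔDS and 22.8 ppm in salt +WT seeds. The order of the states thus differed between genotypes: ΔDS seeds ran from dry to imbibed to salt, and +WT seeds from dry to salt to imbibed. As a ratio of levels, imbibed over dry was 1.42 in ΔDS and 9.96 in +WT seeds, and salt over dry was 2.90 in ΔDS and 5.49 in +WT seeds. Salt over imbibed was 2.04 in ΔDS and 0.551 in +WT seeds. The tables were normalised separately, so these ratios have no test, and with the tables scaled by the median ratio of genes imbibed over dry became 0.936 in ΔDS and 6.56 in +WT seeds.

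**Figure D1:**
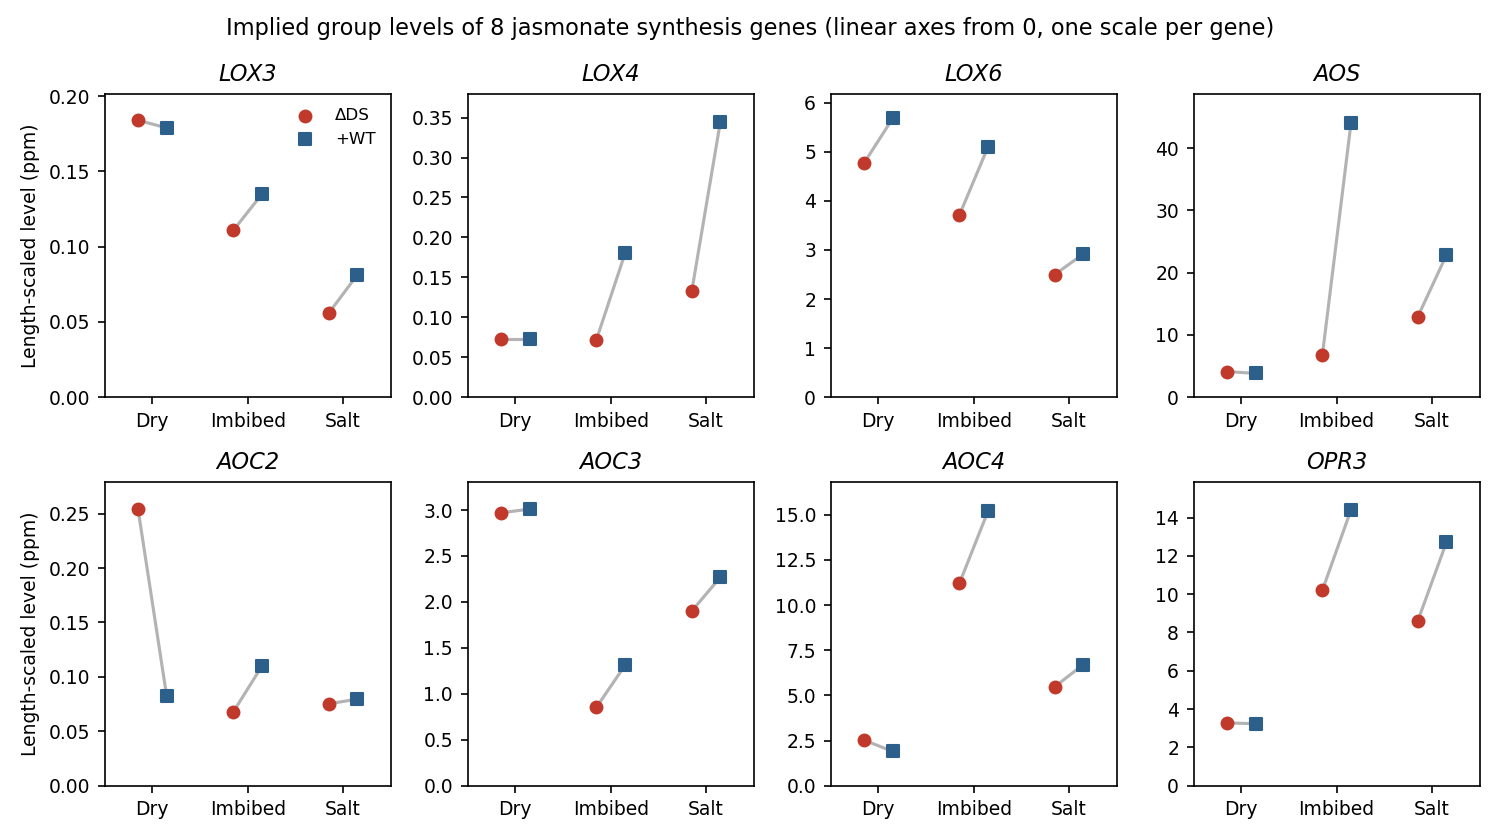
Implied group levels of 8 of the 10 genes in length-scaled ppm (y axis, linear from 0, one scale per gene) in dry, imbibed and salt seeds (x axis), with ΔDS as circles left of +WT as squares; no error bars are drawn because group levels have no spread of their own. AOS reads 6.75 ppm in imbibed ΔDS seeds and 44.0 ppm in imbibed +WT seeds, and LOX2 and AOC1, at or near 0, are not drawn.

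Among the 13-lipoxygenase genes LOX6 (AT1G67560, chr1:25319804-25324581, 9 exons) made up nearly all of the signal. It was 95.3% of the summed length-scaled level of the 4 genes in dry seeds, 94.7% in imbibed seeds and 89.7% in salt seeds. LOX6 was implied at 299 normalised counts in dry ΔDS and 356 in dry +WT seeds, 187 in imbibed ΔDS and 257 in imbibed +WT seeds, and 143 in salt ΔDS and 167 in salt +WT seeds. Its mean level was 5.22 ppm in dry seeds, 4.41 ppm in imbibed seeds and 2.71 ppm in salt seeds, an order that held in both genotypes and under each of the 3 scalings between tables, as a description.

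LOX6 was lower in imbibed ΔDS seeds, with a log2 fold change of -0.46 ± 0.172 and an adjusted p of 0.0227 in the authors' deposited table. Its values of -0.25 ± 0.129 in dry seeds (adjusted p = 0.304) and -0.22 ± 0.181 in salt seeds (adjusted p = 0.512) in the authors' deposited table did not pass. The LOX6 effect was not shown to differ between states: salt minus imbibed was 0.24 ± 0.250 with an interval of -0.25 to 0.73 and an adjusted p of 0.604.

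The other lipoxygenase genes had few counts, and LOX2 lay below the mean of 0.5 taken as detected. LOX2 (AT3G45140), the main leaf enzyme of the wound response, had a mean of 0.151 normalised counts in dry and 0.277 in salt seeds and was listed at 0 in imbibed seeds. LOX3 (AT1G17420), which acts in flower fertility together with LOX4, averaged 10.5 normalised counts in dry seeds, 5.73 in imbibed seeds and 3.63 in salt seeds. LOX4 (AT1G72520) averaged 4.16 in dry seeds, 5.78 in imbibed seeds and 12.4 in salt seeds. LOX4 in salt seeds was implied at 6.92 counts in ΔDS and 18.0 in +WT, with a log2 fold change of -1.38 ± 0.737 that did not pass (adjusted p = 0.234 in the authors' deposited table).

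Of the allene oxide cyclase genes, AOC3 and AOC4 carried the signal, in proportions that differed between seed states. AOC3 (AT3G25780, chr3:9409160-9411090) held 51.8% of the summed level in dry ΔDS and 60.3% in dry +WT seeds, 7.02% in imbibed ΔDS and 7.91% in imbibed +WT seeds, and 25.5% in salt ΔDS and 25.1% in salt +WT seeds. AOC4 (AT1G13280, chr1:4547388-4548894) held 43.8% in dry ΔDS and 38.1% in dry +WT seeds, 92.1% in imbibed ΔDS and 91.4% in imbibed +WT seeds, and 73.5% in salt ΔDS and 74.0% in salt +WT seeds. The change of the leading copy was thus present in both genotypes. Salt seeds lay between dry and imbibed seeds in this mix.

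AOC3, AOC1 (AT3G25760) and AOC2 (AT3G25770) lie side by side on chromosome 3 within 7312 bases, and AOC4 is on chromosome 1. Coding identity was 90.3% between AOC1 and AOC2, 82.7% between AOC1 and AOC3 and 80.0% between AOC3 and AOC4, and no run of 100 bases was shared between any of the 10 genes. A stretch of 60 coding bases near the end of each gene is shown because it tells the copies apart, with capitals where a copy has another base than AOC3 (10 in AOC1, 10 in AOC2 and 18 in AOC4).
AOC1: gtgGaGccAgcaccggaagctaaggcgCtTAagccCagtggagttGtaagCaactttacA
AOC2: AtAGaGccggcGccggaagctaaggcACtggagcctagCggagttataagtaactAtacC
AOC3: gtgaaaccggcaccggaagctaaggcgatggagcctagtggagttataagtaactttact
AOC4: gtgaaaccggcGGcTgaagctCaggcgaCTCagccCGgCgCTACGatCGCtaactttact

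AOC4 was implied at 63.4 normalised counts in dry ΔDS and 47.9 in dry +WT seeds, 227 in imbibed ΔDS and 308 in imbibed +WT seeds, and 126 in salt ΔDS and 154 in salt +WT seeds. Its log2 fold change passed in imbibed seeds alone, at -0.44 ± 0.184 with an adjusted p of 0.0437 in the authors' deposited table. In the authors' deposited table it was 0.40 ± 0.302 in dry seeds (adjusted p = 0.578) and -0.29 ± 0.192 in salt seeds (adjusted p = 0.378). The difference between imbibed and dry seeds was -0.84 ± 0.354 and did not pass (adjusted p = 0.0639).

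AOC3 was implied at 92.6 counts in dry ΔDS and 93.8 in dry +WT seeds, 21.4 in imbibed ΔDS and 32.9 in imbibed +WT seeds, and 54.0 in salt ΔDS and 64.6 in salt +WT seeds. None of its fold changes passed, and that in imbibed seeds was -0.62 ± 0.446 (adjusted p = 0.264) in the authors' deposited table. AOC2 had means of 4.10, 1.74 and 1.72 counts in dry, imbibed and salt seeds. AOC1 was listed at 0 in dry and salt seeds and had a mean of 0.408 in imbibed seeds, below the 0.5 that 3 counts in 6 libraries give.

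**Figure D2:**
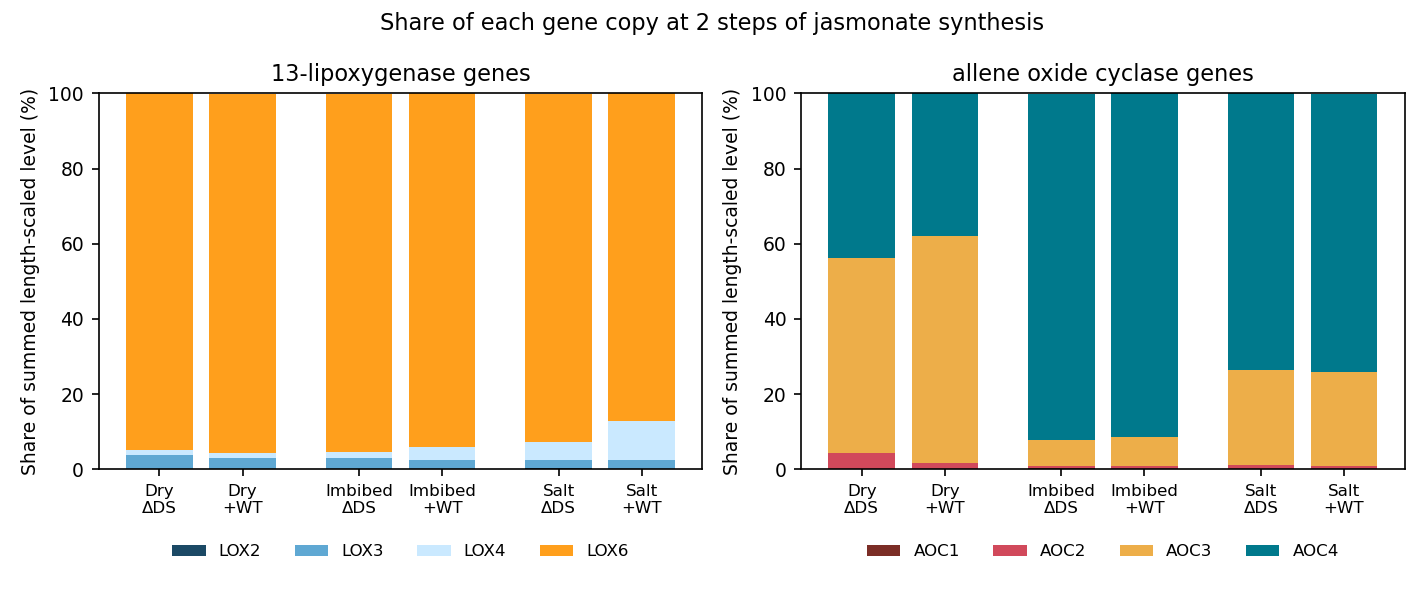
Share of each gene (y axis, percent) in the summed length-scaled level of the 13-lipoxygenase genes (left) and the allene oxide cyclase genes (right), with ΔDS left of +WT in each seed state (x axis). LOX6 fills most of every left bar, and AOC4 takes 92.1% of the imbibed ΔDS bar and 91.4% of the imbibed +WT bar where it takes 43.8% of the dry ΔDS bar and 38.1% of the dry +WT bar.

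OPR3 (AT2G06050, chr2:2359114-2362375, 4 exons), which reduces OPDA in the peroxisome, had a higher level in wet than in dry seeds of both genotypes, as a description, and was reduced in ΔDS against +WT in both wet states. It was implied at 105 normalised counts in dry ΔDS and 103 in dry +WT seeds, 261 in imbibed ΔDS and 370 in imbibed +WT seeds, and 251 in salt ΔDS and 372 in salt +WT seeds. The log2 fold change of OPR3 was 0.02 ± 0.205 in dry seeds (adjusted p = 0.977) in the authors' deposited table. In the authors' deposited table it was -0.50 ± 0.154 in imbibed seeds (1.41-fold lower in ΔDS, adjusted p = 0.00484) and -0.57 ± 0.131 in salt seeds (1.48-fold lower in ΔDS, adjusted p = 0.000300).

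For OPR3, salt minus imbibed was -0.07 ± 0.202 with an interval of -0.46 to 0.33 (adjusted p = 0.879). Neither wet state was shown to differ from dry seeds, with -0.52 ± 0.257 for imbibed minus dry (adjusted p = 0.120) and -0.59 ± 0.243 for salt minus dry (adjusted p = 0.156). Set side by side, AOS was 6.52-fold and OPR3 1.41-fold lower in imbibed ΔDS seeds, and 1.76-fold and 1.48-fold lower in salt ΔDS seeds. The difference between the genes was not tested.

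In dry seeds 6 of the 10 genes were tested and none had a DESeq2 adjusted p under 0.05, while 1 (LOX6) lay under 0.05 before adjustment, where 6.06% of all 16597 tested genes passed (2.96% higher and 3.10% lower in ΔDS). LOX2, LOX4 and AOC2 had no adjusted p there and AOC1 was listed at 0. In imbibed seeds 8 were tested and 4 passed, all lower in ΔDS (LOX6, AOS, AOC4 and OPR3), where 40.8% of 19430 genes passed (21.3% higher and 19.5% lower). In salt seeds 7 were tested and 2 passed, both lower (AOS and OPR3), where 14.0% of 18518 genes passed (6.98% higher and 6.99% lower). The median log2 fold change of the tested members was 0.03 in dry seeds, -0.56 in imbibed seeds and -0.54 in salt seeds, beside 0.00, 0.02 and 0.00 over all tested genes. All 8 tested members lay below 0 in imbibed and all 7 in salt seeds. Genes that were too low to be tested are not in these counts. No share of all genes below 0 is set beside these counts, which are a description. They include AOS, whose low imbibed value was known, and the low-count LOX3, LOX4 and, in imbibed seeds, AOC2. The salt median is that of LOX3 (-0.54 ± 1.29), which did not pass. With a minimum mean of 5 ppm of the table sum, 4 members in each wet state had medians of -0.48 (imbibed) and -0.43 (salt). Scaled by library totals both medians were -0.38, beside 0.2 and 0.16 over all tested genes.

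Scaled by library totals, which shifts the imbibed fold changes by 0.19 towards ΔDS, only AOS still passed in imbibed seeds, where 9.66% of genes were called lower, and in salt seeds AOS and OPR3 both still passed, where 2.30% of genes were called lower. With a fold change of at least 2 required, AOS alone passed in imbibed seeds (3.54% of genes called lower) and no member in salt seeds (0.356% called lower).

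**Figure D3:**
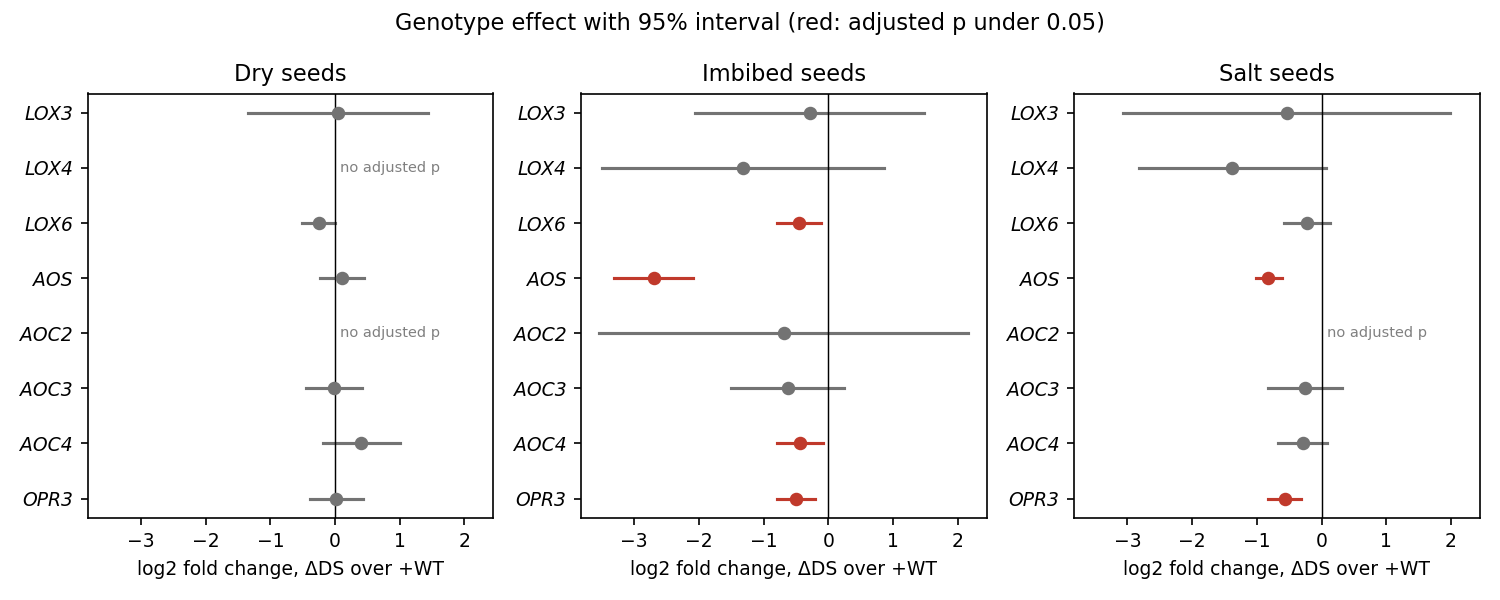
Log2 fold change of ΔDS over +WT (x axis) with its 95% interval for 8 of the 10 genes (rows) in dry, imbibed and salt seeds, in red where the adjusted p was under 0.05. AOS lies at -2.70 in imbibed and -0.82 in salt seeds, and LOX2 and AOC1 are not drawn. LOX4 and AOC2 in dry seeds and AOC2 in salt seeds had no adjusted p and are marked so, with no point or interval.

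Ordered by length-scaled mean level, dry seeds ran LOX6 (5.22 ppm), AOS (3.96), OPR3 (3.26), AOC3 (2.99) and AOC4 (2.21), with the other 5 genes at or under 0.181 ppm. Imbibed seeds ran AOS (25.4 ppm), AOC4 (13.2), OPR3 (12.3), LOX6 (4.41) and AOC3 (1.08). These means are over both genotypes, and AOS led in imbibed +WT seeds alone (44.0 ppm). In imbibed ΔDS seeds AOC4 (11.2 ppm) and OPR3 (10.2 ppm) lay above AOS (6.75 ppm). Salt seeds ran AOS (17.8 ppm), OPR3 (10.7), AOC4 (6.10), LOX6 (2.71) and AOC3 (2.09). AOS, AOC4 and OPR3 were thus above LOX6 in both wet states and below it in dry seeds. AOC4 and OPR3 in imbibed seeds changed places when the longest transcript served as length, so their order is not settled.

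The counts of the further gene lists are read beside the shares over all tested genes. As deposited these were 2.96% higher and 3.10% lower in dry, 21.3% and 19.5% in imbibed, and 6.98% and 6.99% in salt ΔDS seeds. With library totals they were 7.24% higher and 1.49% lower in dry, 32.7% and 9.66% in imbibed, and 20.3% and 2.30% in salt ΔDS seeds.

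Genes for the supply of linolenic acid moved in both directions. Of 8 listed, 6 were tested in each state: none passed in dry seeds, 3 rose and 1 fell in imbibed ΔDS seeds, and 2 rose and 1 fell in salt ΔDS seeds (3 and 1 with library totals), where 21.3% of all genes rose and 19.5% fell in imbibed seeds and 6.98% and 6.99% in salt seeds. The fatty acid desaturase genes FAD3, FAD7 and FAD8 stood at 1.27 ± 0.248, 0.84 ± 0.193 and 1.11 ± 0.203 in imbibed seeds in the authors' deposited table. PLIP2, a plastid lipase gene tied to abscisic acid and jasmonate, fell in imbibed (-1.51) and salt (-0.69 ± 0.141) ΔDS seeds in the authors' deposited table. The lipase genes DAD1 and DGL were listed at 0 in every state.

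Of 6 genes for competing oxylipin enzymes and OPR relatives, OPR1 and OPR2 rose in ΔDS seeds of both wet states, the opposite direction to OPR3. Their enzymes reduce OPDA poorly. OPR1 stood at 0.97 ± 0.150 in imbibed and 1.5 ± 0.234 in salt seeds, and OPR2 at 1.05 ± 0.352 in imbibed and 1.62 ± 0.566 in salt seeds, in the authors' deposited table. No gene of this list fell, and the calls were 0 of 4 tested in dry, 2 of 3 in imbibed and 2 of 4 in salt seeds, where 21.3% and 6.98% of all genes rose in the wet states. OPR1 and OPR2 are adjacent and similar, so reads may be split between them.

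Of 11 genes for OPDA transport and peroxisomal beta-oxidation, 0 rose and 2 fell of 10 tested in dry, 3 rose and 2 fell of 11 in imbibed, and 1 rose and 2 fell of 11 in salt ΔDS seeds. Over all genes 2.96%, 21.3% and 6.98% rose and 3.10%, 19.5% and 6.99% fell. ACX1, the acyl-CoA oxidase of jasmonate synthesis, fell slightly in all 3 states (-0.18 ± 0.0491, -0.47 ± 0.0890 and -0.42 ± 0.0596 in the authors' deposited table). In the authors' deposited table its relative ACX2, which acts on long chains in oil breakdown, rose in imbibed (0.64 ± 0.145) and salt (0.22 ± 0.0499) ΔDS seeds. With library totals this list read 1 higher and 0 lower in dry, 5 and 1 in imbibed, and 3 and 1 in salt seeds, where 7.24%, 32.7% and 20.3% of all genes were called higher.

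Of 12 genes for conjugation and turnover, none rose, and 1 of 6 tested fell in dry, 3 of 7 in imbibed and 3 of 9 in salt ΔDS seeds, where 3.10%, 19.5% and 6.99% of all genes fell. JOX2, a jasmonate oxidase, stood at -2.11 ± 0.189 in imbibed and -1.06 ± 0.161 in salt seeds, and the amidohydrolase gene ILL6 at -1.33 ± 0.152 in imbibed and -0.92 ± 0.0991 in salt seeds, in the authors' deposited table. For JOX2, imbibed minus dry was -2.04 ± 0.247 and salt minus imbibed was 1.05 ± 0.248. Both are a description without a test, because JOX2 was named by its small adjusted p in imbibed seeds. CYP94C1, which oxidises the isoleucine conjugate, fell in salt ΔDS seeds (-1.15 ± 0.103 in the authors' deposited table). ST2A, a sulfotransferase of hydroxyjasmonate, fell in dry ΔDS seeds (-0.94 ± 0.0766, adjusted p = 1.66e-31 in the authors' deposited table), the 1 call of this list there. JAR1, which makes the active conjugate, did not pass in any state, and the authors' deposited table has it at 0.15, -0.20 and 0.03 in the 3 states. With library totals, 2 genes were lower in imbibed seeds and 1 was higher in salt seeds, where 9.66% of all genes were lower and 20.3% higher.

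Among 8 receptor and transcription factor genes, all tested in each state, MYC2 had the lowest fold change among those that passed in both wet states. MYC2, a main activator of jasmonate genes, stood at -1.53 ± 0.179 in imbibed (adjusted p = 3.99e-15) and -0.85 ± 0.141 in salt seeds (adjusted p = 7.94e-08) in the authors' deposited table. Its salt minus imbibed difference was 0.68 ± 0.228, given without a test because MYC2 was named by its small adjusted p in these states. MYC3 fell (-0.62 ± 0.147) and MYC4 rose (0.79 ± 0.195) in imbibed ΔDS seeds in the authors' deposited table. The list counted 1 higher and 0 lower in dry, 1 and 3 in imbibed, and 0 and 1 in salt seeds, and 2 and 0, 1 and 2, and 1 and 1 when scaled by library totals. The 4 calls of 8 genes in imbibed seeds stand beside 40.8% of all genes called there. The receptor gene COI1 did not pass in any state.

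The JAZ repressor genes, 13 in all, counted no rise and 1, 5 and 4 falls of 11 tested in dry, imbibed and salt ΔDS seeds (0, 5 and 2 scaled by library totals). Over all genes 3.10%, 19.5% and 6.99% fell (1.49%, 9.66% and 2.30% scaled by library totals). JAZ7 stood at -2.29 ± 0.386 and JAZ6 at -1.36 ± 0.230 in imbibed seeds, and JAZ3 at -0.63 ± 0.102 in salt seeds, in the authors' deposited table. Of 8 leaf markers of jasmonate response none was tested in any state, and VSP1 was listed at 0 throughout. Among 4 dormancy genes linked to OPDA or abscisic acid, 2 fell in dry, 4 in imbibed and 1 in salt ΔDS seeds (0 and 4 lower in dry and imbibed seeds, and 2 higher in salt seeds, scaled by library totals). The shares over all genes called lower were the 3.10%, 19.5% and 6.99% given for the JAZ genes. DOG1 stood at -1.40 ± 0.257 in imbibed seeds in the authors' deposited table. Its salt minus imbibed difference was 1.40 ± 0.264, given without a test because DOG1 was named by its small adjusted p in imbibed seeds.

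**Figure D4:**
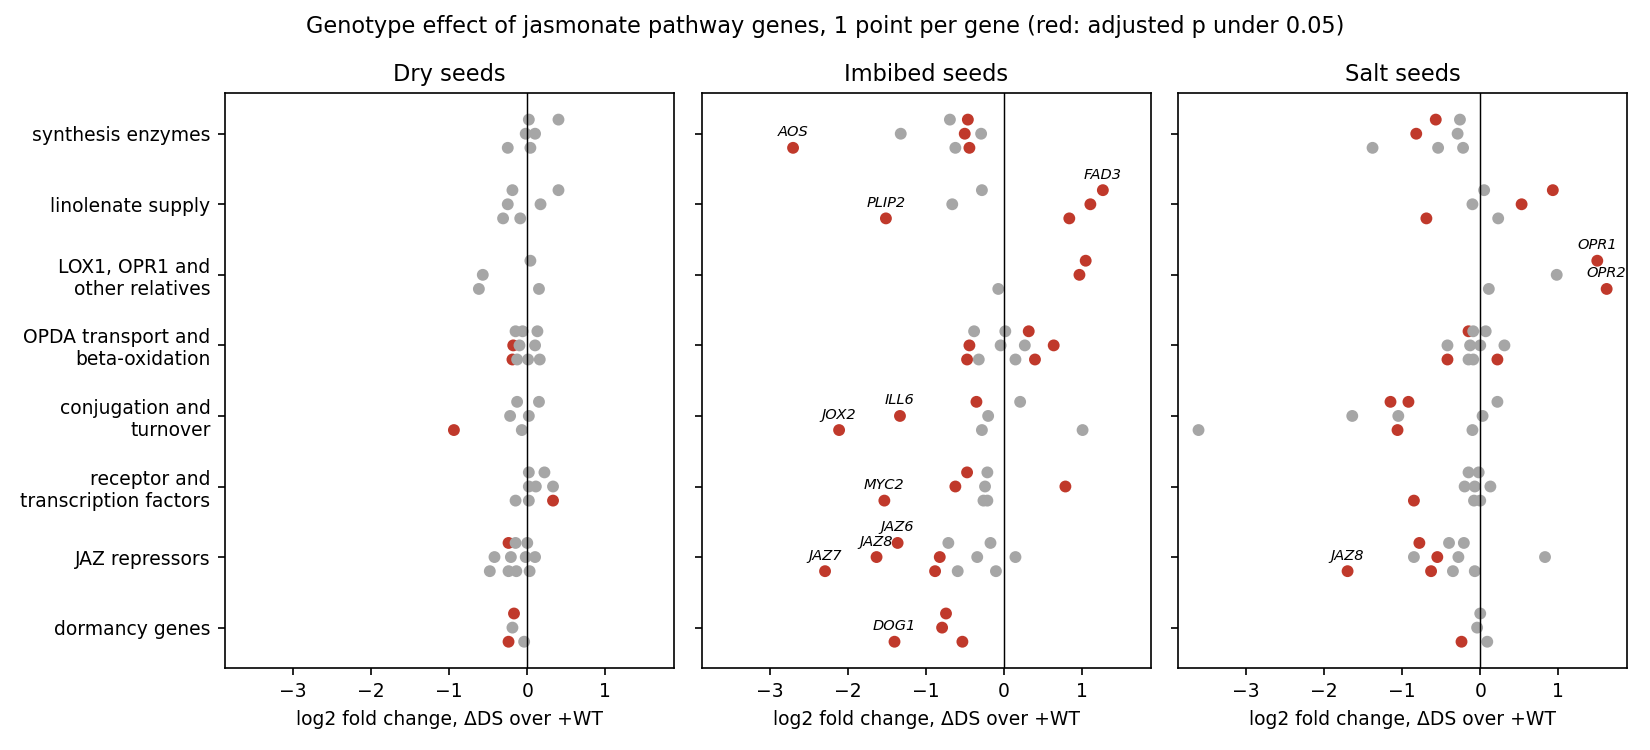
Log2 fold change of ΔDS over +WT (x axis) for the tested genes of the synthesis set and 7 further gene lists (rows), 1 point per gene, in dry, imbibed and salt seeds, in red where the adjusted p was under 0.05; height within a row only separates points. AOS at -2.70 lies lowest in imbibed seeds, next to JAZ7 (-2.29) and JOX2 (-2.11).

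Markers of seed tissues moved in the same tables. All 10 embryo storage and oil body markers were lower in imbibed ΔDS seeds, as were 8 of 10 in dry and 8 of 10 in salt seeds (9, 7 and 7 with library totals), where 19.5%, 3.10% and 6.99% of all genes were lower. Their summed length-scaled level was 54200 ppm in dry ΔDS and 74800 ppm in dry +WT seeds, 42500 ppm in imbibed ΔDS and 107000 ppm in imbibed +WT seeds, and 84300 ppm in salt ΔDS and 114000 ppm in salt +WT seeds. The median fold change of these markers was -0.54, -1.33 and -0.44 in dry, imbibed and salt seeds. Of 4 endosperm markers the abundant EPR1 was lower in all 3 states (-0.35, -1.14 and -0.49 in the authors' deposited table), while AGL62, an early endosperm regulator, was higher in all 3 and MAN7 in imbibed and salt seeds. AGL62 was implied at 26.1 normalised counts in dry ΔDS and 7.46 in dry +WT seeds, 24.3 in imbibed ΔDS and 0.373 in imbibed +WT seeds, and 20.6 in salt ΔDS and 0.199 in salt +WT seeds, with adjusted p-values of 0.0298, 5.09e-05 and 2.09e-05 in the authors' deposited table. Its +WT levels in imbibed and salt seeds lie below the mean of 0.5 taken as detected, so the size of those fold changes is poorly known. Of the 3 endosperm markers tested 1 was higher and 1 lower in dry seeds, and 2 were higher and 1 lower in each wet state. The median fold change of these 3 was 0.48 in dry seeds, 1.29 in imbibed seeds and 0.49 in salt seeds. The summed length-scaled level of the 4 endosperm markers was instead lower in ΔDS in every state. It was 19700 ppm in dry ΔDS and 25100 ppm in dry +WT seeds, and 8570 ppm in imbibed ΔDS and 18700 ppm in imbibed +WT seeds. In salt seeds it was 14400 ppm in ΔDS and 20100 ppm in +WT. EPR1 in salt seeds no longer passed with library totals. The seed coat markers summed to 15.8 ppm in imbibed ΔDS and 10.5 ppm in imbibed +WT seeds. Their sums were 3.33 ppm in dry ΔDS and 2.87 ppm in dry +WT seeds, and 6.27 ppm in salt ΔDS and 5.04 ppm in salt +WT seeds. Of 7 listed, 3, 4 and 2 were at 0 in dry, imbibed and salt seeds. In imbibed seeds 2 of 3 tested (TTG2 and MUM4) were higher in ΔDS, where 21.3% of all genes were higher. None passed in dry (1 tested) or salt seeds (3 tested). With library totals 1 was higher in salt seeds, where 20.3% of all genes were higher. The pollen markers summed to 9.96 ppm in dry ΔDS and 17.9 ppm in dry +WT seeds, with 2 of 6 lower in dry seeds and none past the threshold in the wet states. The part of these shifts in the results for AOS, OPR3, LOX6 and AOC4 was not tested.

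Likeness to AOS was measured as the root mean square difference of the 6 implied group levels, in log2 and centred per gene, among 13441 genes. The nearest were HSFA2, a heat shock transcription factor gene (0.435), AT1G77100 (0.449), the cruciferin gene CRU1 (AT5G44120, 0.458), AT5G66052 (0.460) and AT1G12290 (0.463). Their fold changes in imbibed seeds lay between -1.27 and -1.47 in the authors' deposited table, against -2.70 for AOS, and that of HSFA2 did not pass (adjusted p = 0.320). The summed AOC genes had closer neighbours, with AT2G46250 at 0.041 and AT3G21690 at 0.068. Centred levels ran from -1.35 to 1.96 for AOS and from -0.57 to 0.79 for the summed AOC genes. The distance is not scaled for that range, so it cannot say which profile is more unusual. These distances rest on the same 6 group levels for every gene and have no test.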

How the data were processed

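Seeds of 2 genotypes in 3 states were profiled by RNA-seq, with 3 replicates per group. The submitters' processing notes name HISAT2, DESeq2 and TAIR10 with no tool versions. The read counter, strandedness and annotation were not given in the sources used here. Per the file headers each table has the standard DESeq2 columns. Its signal values, deposited by the authors, are means of size-factor normalised counts over 6 libraries. The log2 fold change and its SE are on the log2 scale as deposited by the authors. The authors deposited the Wald statistic as a score, and each p-value in a raw and a Benjamini-Hochberg adjusted form, the second missing for genes that DESeq2 filtered.

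Calls used the deposited adjusted p at 0.05. The genotype effect was compared between states with a z test of the deposited fold changes, adjusted over all genes tested in both tables. The step was also run on values simulated with the deposited SEs, which cannot check whether those SEs are right. Levels across states were only described. Lengths, names and sequences came from TAIR10.1 (27998 of 33602 identifiers matched an exon length). The members, the 12 lists and the tests were chosen with earlier results of these data known. Named genes were all members, up to 3 genes per list and state with the smallest adjusted p past 0.05, and the 5 genes nearest to AOS and to the summed AOC genes. A few further values (JAR1, COI1, EPR1 in salt seeds, PLIP2 in imbibed seeds, and genes listed at 0) were added after they were seen. Alternatives were other adjustments, a minimum mean of 5 ppm of the table sum, a fold change of at least 2, library totals, centring, removal of a lowess length trend (span 0.3) and other level scalings. The design foresaw a count test for files with counts per library, which did not apply. Replicates may be technical, so p-values measure the spread between these samples, and floors cover counting error only. Python 3.11.15, pandas 2.3.3, scipy 1.17.1, statsmodels 0.14.6 and biopython 1.88 were used.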

Additional observations from a re-analysis of the deposited data

Results flagged for a closer look

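The genotype effect on AOS was of different size in the 3 seed states. Salt minus dry was -0.92 and passed the z test of the deposited log2 fold changes, which was chosen with earlier results of these data known. Imbibed minus dry was -2.81 and salt minus imbibed was 1.89, both given without a test, because the low AOS value of imbibed ΔDS seeds was known when the genes were chosen. The SE of AOS in imbibed seeds exceeded that of 98.5% of 1700 genes of like level.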

How the results depend on the processing

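No call reversed. The count of 4 members lower in imbibed ΔDS seeds became 1 with a fold change of at least 2 and 1 with scaling by library totals, where AOS remained and LOX6 (-0.27, adjusted p = 0.195), AOC4 (-0.25, adjusted p = 0.270) and OPR3 (-0.31, adjusted p = 0.0863) did not pass. AOC4 also missed the threshold with adjustment over all genes with a p (adjusted p = 0.0503). The count of 2 in salt seeds became 0 with a fold change of at least 2. For imbibed minus dry seeds, leaving out AOS, no member passed the z test as deposited, where 25.0% of 16228 genes were called. With the length trend removed AOC4 passed (-0.91, adjusted p = 0.0441), where 24.0% of 15959 genes were called. With the longest transcript as length 2 members changed places in imbibed seeds. The other 173 single-gene values kept their side of the threshold.

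No paired analysis was possible because the tables give means over libraries. Leaving out replicates in turn was not run, since it needs values per library. Depth limits LOX2, LOX3, LOX4, AOC1 and AOC2, whose fold changes have SEs of 0.71 or more.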
